A study of Homo sapiens with 6 samples.

Results

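The genes described here are the heat shock protein genes named on an Affymetrix Human Gene 2.0 ST array, measured in the multiple myeloma lines RPMI8226, KMS11 and U266. They were chosen by symbol: names of the DNAJA, DNAJB or DNAJC series, of the HSPA, HSPB, HSPD, HSPE or HSPH series, or beginning with HSP90. The rule was set with earlier results of these data known. It gave 17 members of 14884 named genes. All 17 are HSP70, HSP110, HSP60 or small heat shock protein genes. No symbol of the 43 DNAJ or 16 HSP90 symbols that fit the pattern in RefSeq stood among the named probe sets, so genes with DNAJ or HSP90 symbols were not analysed here and the set carries no J-domain gene. Of the 17 members, 12 are cytosolic HSP70 or HSP110 genes (HSPA7 being a pseudogene), 3 small heat shock protein genes and 2 genes of mitochondrial chaperones. These families are covered in part: 12 of 13 listed cytosolic HSP70 and HSP110 genes were named, 3 of 8 small and 2 of 8 mitochondrial. HSPA8 and HSPE1 fit the rule by symbol but were not named. None of the 13 listed members of the endoplasmic reticulum was named.

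Each line was transfected with 100 nM miR-10a mimic or 100 nM scrambled control using HiPerFect, and total RNA was taken 48 h later. The 6 groups, of 1 array each, were RPMI8226 with mimic and with control, KMS11 with mimic and with control, and U266 with mimic and with control. RPMI8226, KMS11 and U266 are established lines of malignant plasma cells, and no label says that the arrays of a line came from separate cultures. The mimic is a synthetic copy of a microRNA transfected into the cells, meant to add to whatever miR-10a they carry. The level of miR-10a after transfection was not examined here.

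Heat shock proteins bind unfolded stretches of other proteins and keep them from clumping. HSP70 proteins do this in cycles of ATP binding and hydrolysis: J-domain proteins bring the client and start hydrolysis, and HSP110 proteins exchange the nucleotide so that the client is let go. Small heat shock proteins hold clients without ATP, and HSP60 folds them inside a closed chamber in mitochondria. Many of these genes are switched on by the transcription factor HSF1, which binds heat shock elements, runs of GAA repeats in alternating orientation. GAANNTTC and its shifted form TTCNNGAA each hold a pair of such repeats and are called units here. A unit is thus a part of an element and need not be a whole one. Plasma cells secrete antibody in large amounts and are known for a heavy load of folding proteins.

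The sequence of mature human miR-10a, in its 5p form, is given first as RefSeq lists it (GRCh38.p14, chr17:48579904-48579926, minus strand). The sample labels name a miR-10a mimic without its arm or sequence, so that of the mimic itself is not known here. Capitals mark the seed, bases 2 to 8, the part that pairs with targets.
hsa-miR-10a-5p: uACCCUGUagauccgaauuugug

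The bases before the start site are shown for 4 members. HSPA1A and HSPA1B are near-identical genes whose levels moved together across lines, HSPB1 had the widest gap between KMS11 and another line, and HSPA6 had the highest mean change with mimic. Each run is the 250 bases before the RefSeq start site (GRCh38.p14, plus strand), at chr6:31815293-31815542, chr6:31827488-31827737, chr7:76302423-76302672 and chr1:161524290-161524539, and capitals mark heat shock element units.
HSPA1A: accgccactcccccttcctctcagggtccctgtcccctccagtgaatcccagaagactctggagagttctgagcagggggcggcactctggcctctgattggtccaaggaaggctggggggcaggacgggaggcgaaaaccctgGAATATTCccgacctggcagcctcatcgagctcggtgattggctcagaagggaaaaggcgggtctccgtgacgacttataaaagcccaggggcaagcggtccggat
HSPA1B: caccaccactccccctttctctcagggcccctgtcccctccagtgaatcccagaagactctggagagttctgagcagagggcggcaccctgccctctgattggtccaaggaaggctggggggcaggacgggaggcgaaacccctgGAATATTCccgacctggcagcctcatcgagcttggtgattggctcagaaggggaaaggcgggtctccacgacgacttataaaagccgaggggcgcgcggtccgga
HSPB1: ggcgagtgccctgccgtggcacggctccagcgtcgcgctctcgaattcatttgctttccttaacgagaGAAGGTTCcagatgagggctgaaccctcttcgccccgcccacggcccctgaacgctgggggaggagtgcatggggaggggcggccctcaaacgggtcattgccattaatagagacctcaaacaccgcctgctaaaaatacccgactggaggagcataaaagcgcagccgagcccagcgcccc
HSPA6: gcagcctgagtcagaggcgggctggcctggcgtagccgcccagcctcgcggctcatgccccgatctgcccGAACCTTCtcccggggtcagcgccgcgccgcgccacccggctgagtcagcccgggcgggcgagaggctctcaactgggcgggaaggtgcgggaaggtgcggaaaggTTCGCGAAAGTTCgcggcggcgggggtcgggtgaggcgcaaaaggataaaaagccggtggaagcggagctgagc

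In HSPA1A the unit began 106 bases before the start, in HSPA1B 105 bases and in HSPB1 182 bases. HSPA6 held 3 units, of which those beginning 74 and 69 bases before the start overlap by 3 letters. An alignment of the HSPA1A and HSPA1B windows had 235 identical bases, 14 mismatches and 2 gaps. HSPA1L lies next to HSPA1A on the opposite strand. Their windows share 241 bases and the same GAATATTC unit, at chr6:31815437-31815444. Of the 14 members with a RefSeq promoter entry, 9 held at least 1 unit of either form in a window, against 14.0% of all genes with an entry. The members shown above are all among these 9. HSPA2, HSPA4, HSPA9, HSPA12A and HSPH1 held no unit. The units were searched as GAANNTTC and TTCNNGAA, each of which reads the same on both strands, with overlaps counted. The endoplasmic reticulum stress element (CCAAT, 9 free bases, CCACG) was found in no member window on either strand and in 0.074% of all windows. A match of letters is a description and shows no binding.

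Values are log2 units of the array summary, so a difference of 1 unit is 2-fold. They are compared for 1 probe set between arrays and not between probe sets. In these bulk samples, fewer cells of a type and less RNA per cell cannot be told apart. Over all named genes, Pearson's r was 0.994 to 0.995 within a line and 0.900 to 0.921 between lines. IRF4 and XBP1, plasma cell regulators, stood at 10.26 or above and at 9.34 or above in every array. Other plasma cell markers varied by line: SDC1 was as low as 5.52 in KMS11 and CD38 as low as 3.80 in U266. Of 6 plasma cell markers 4 were named, of 4 B cell markers 1, of 4 T cell and myeloid markers 3 and of 3 stromal markers 1. The markers of other cells, PAX5, CD14, LYZ and VCAM1, did not exceed 4.18, and CD8A reached 5.59 in RPMI8226 with mimic. MAF was highest in RPMI8226, FGFR3 and NSD2 in KMS11 and CCND1 in U266. The line means of MAF were 10.57 in RPMI8226, 8.94 in KMS11 and 4.77 in U266, so it was not confined to RPMI8226.

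The levels of 9 of the 17 members differed among the 3 lines, and the members did not share 1 order. HSPA1A and HSPA1B, which are stress-induced HSP70 genes, were lowest in KMS11. HSPH1, HSPA4 and HSPA4L, the HSP110 genes, were lowest in RPMI8226. HSPB1, encoding the small heat shock protein HSP27, and HSPA9, the mitochondrial HSP70, were highest in KMS11. HSPD1, encoding HSP60, was lowest in U266. The calls are from limma's F test with Benjamini-Hochberg adjustment over all 14884 named genes at 0.05, with treatment as a term.

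By compartment, 6 of 12 cytosolic, 1 of 3 small and 2 of 2 mitochondrial members were called. The share of the 17 was 52.9%, against 50.8% of all named genes, so the members as a set differed between lines about as often as other genes. A range of at least 1 log2 unit between the line means, with the same test, was seen for 5 members, HSPA1A, HSPA1B, HSPH1, HSPA4L and HSPB1, against 23.5% of all named genes. Of the 17 members, 11 had a mean at or above 4.70 log2 units, the median of all named genes, and 6 lay below it. All 9 members called were among those 11, an 81.8% share, and 76.4% of all genes at such levels were called in the same test. Each line is represented by 2 arrays that differ in treatment. With line and treatment in the fit, the p-values rest on the spread of the mimic changes between the 3 lines. Limma draws each gene's spread toward that of all named genes, with 2 residual and 4.12 prior degrees of freedom. The p-values do not measure the variation between cultures of a line.

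**Figure D1:**
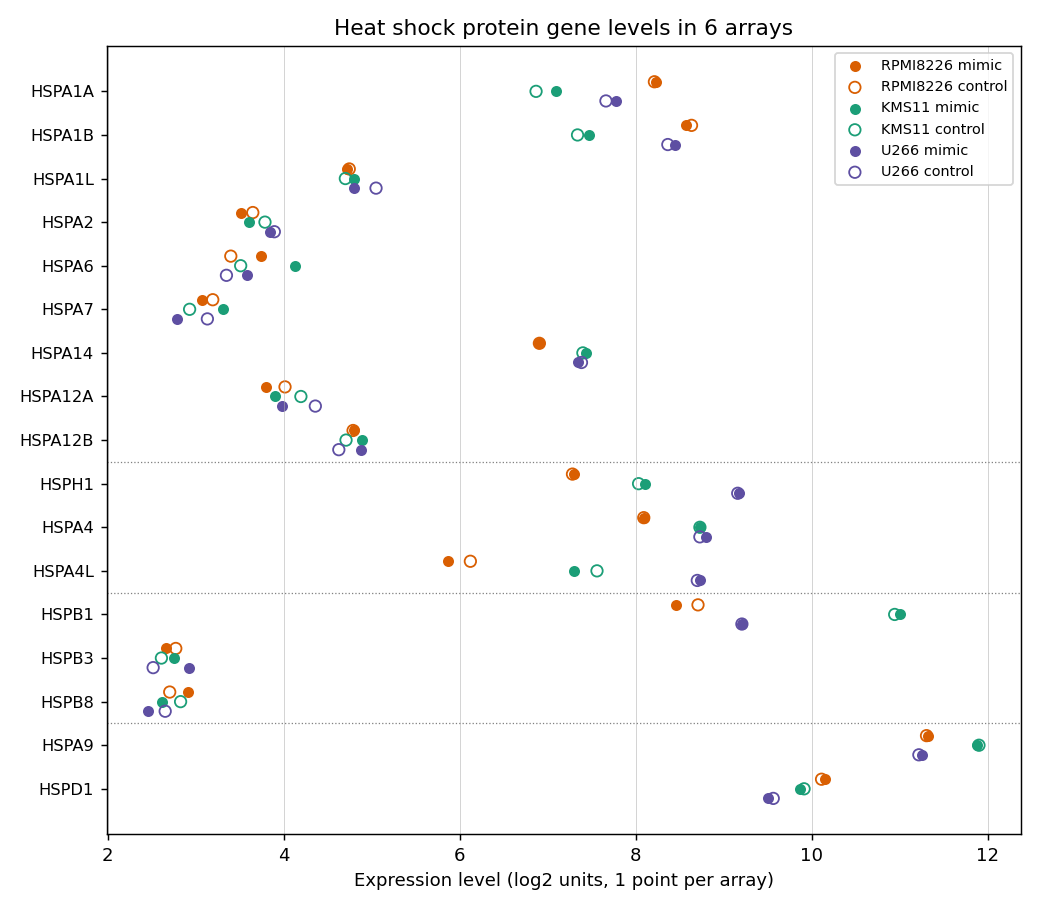
Expression level on the x axis (log2 units) of the 17 members, 1 row each, with filled points for miR-10a mimic arrays and open points for scrambled control arrays, coloured by line; dotted lines part HSP70, HSP110, small and mitochondrial chaperones. HSPB1 sits at 10.94 or above in KMS11, apart from both other lines, and HSPA4L and HSPH1 form 3 separate pairs of points.

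Between pairs of lines, limma's contrasts with adjustment over all named genes gave counts in each direction. In RPMI8226 against KMS11, 2 members were higher and 6 lower, where 16.4% and 20.4% of all named genes were. In RPMI8226 against U266, 2 were higher and 5 lower, against 18.7% and 20.3%. In KMS11 against U266, 3 were higher and 4 lower, against 19.9% and 17.2%. The comparisons share arrays. The median difference over the 17 members was -0.11 for RPMI8226 minus KMS11, -0.000945 for RPMI8226 minus U266 and -0.034 for KMS11 minus U266. Over all named genes it was 0.0029, 0.031 and 0.028.

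**Figure D2:**
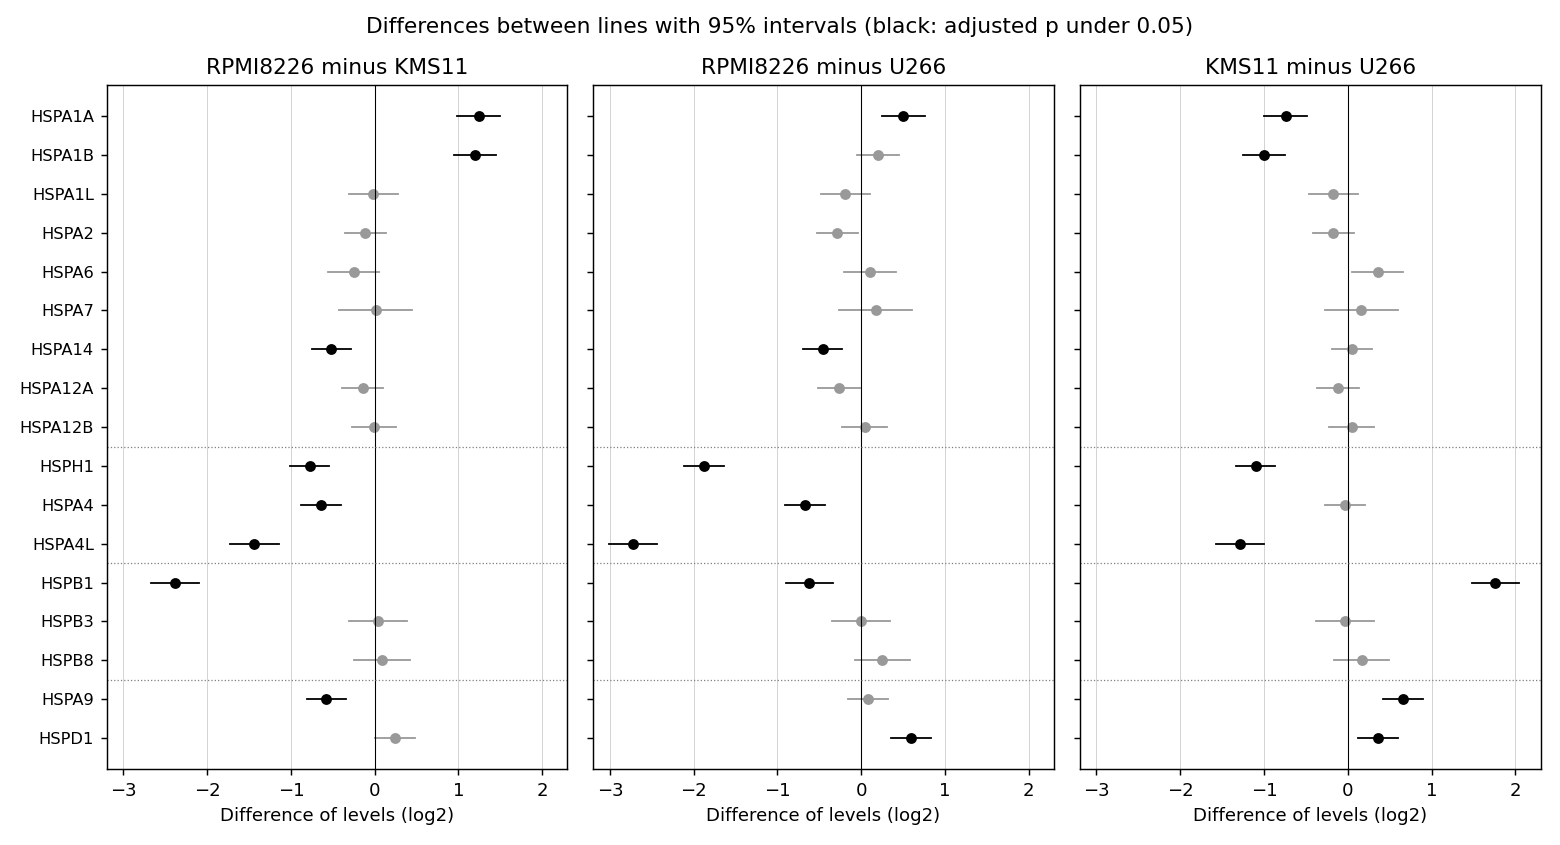
Difference of levels between 2 lines (log2, x axis) for the 17 members, 1 panel for each pair of lines; points are estimates, bars 95% intervals, black where the adjusted p was under 0.05. HSPA1A and HSPA1B lie right of 0 where HSPH1, HSPA4 and HSPA4L lie left of it in RPMI8226 minus KMS11.

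HSPA1A, which encodes the main stress-induced HSP70, had 8.22 log2 units with mimic and 8.21 with control in RPMI8226. KMS11 had 7.09 with mimic and 6.87 with control, while U266 had 7.77 and 7.66. No 2 lines overlapped, and RPMI8226 was highest. The difference of RPMI8226 minus KMS11 was 1.24 (95% interval 0.98 to 1.496, limma's adjusted p = 0.000272), or 2.36-fold. KMS11 minus U266 gave -0.74 (-0.996 to -0.48, adjusted p = 0.00225). RPMI8226 minus U266 gave 0.50 (0.24 to 0.76, adjusted p = 0.0105), and this call was lost without the RPMI8226 control array (0.42, adjusted p = 0.0782), without the U266 control array (0.50, adjusted p = 0.0532) and without the U266 mimic array (0.50, adjusted p = 0.0516).

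HSPA1B encodes a nearly identical protein, and its probes may read HSPA1A transcripts too, so the pair cannot be separated with certainty. RPMI8226 had 8.57 with mimic and 8.63 with control, KMS11 had 7.47 and 7.34, and U266 had 8.44 and 8.36. KMS11 was again low, and RPMI8226 and U266 lay close together. Limma gave 1.20 for RPMI8226 minus KMS11 (0.94 to 1.45, adjusted p = 0.000304) and -0.999 for KMS11 minus U266 (-1.25 to -0.74, adjusted p = 0.00064). RPMI8226 minus U266 was 0.20 (-0.05 to 0.45, adjusted p = 0.194). It passed with a variance trend (adjusted p = 0.0475) and on 1 other probe set (0.34, adjusted p = 0.0421).

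The array holds 5 probe sets for each of HSPA1A, HSPA1B and HSPA1L, and 3 of the 5 for HSPA1A held identical values in every array. For HSPA1A, RPMI8226 minus KMS11 ranged from 1.14 to 1.32 over the 5, and for HSPA1B from 1.20 to 1.36. All 10 probe sets gave the same order, with RPMI8226 highest and KMS11 lowest. They are not 10 separate readings, as some were identical and the probes of one gene may read the other. HSPA1L, the neighbour of HSPA1A on the other strand and known for expression in testis, showed no such pattern. Its probe set had 4.72 with mimic and 4.74 with control in RPMI8226, 4.79 and 4.70 in KMS11, and 4.79 and 5.05 in U266. Its differences between lines lay between -0.19 and -0.01. The 95% interval of RPMI8226 minus KMS11 was -0.31 to 0.28, so this probe set showed no gap as wide as that of HSPA1A. Its mean of 4.80 lay just above the median of all named genes. Without detection calls, whether it stood above background is unknown, so a gap in the transcript cannot be judged.

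**Figure D3:**
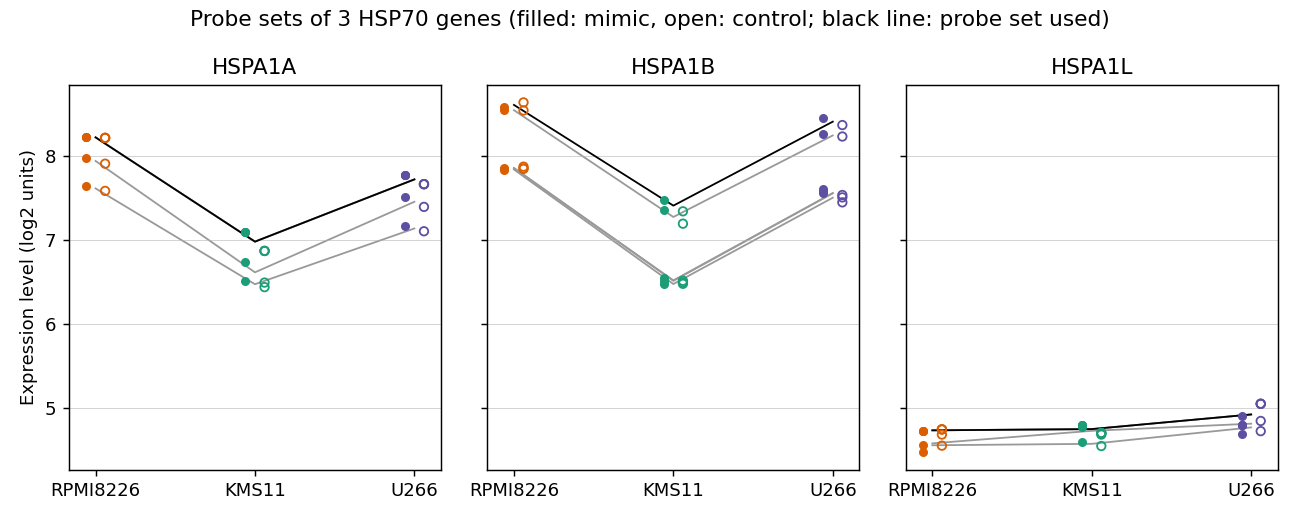
Expression level (log2 units, y axis) of the 5 probe sets each of HSPA1A, HSPA1B and HSPA1L in the 3 lines (x axis); filled points are mimic arrays, open points control arrays, and lines join the means of a line's 2 arrays, black for the probe set used. The lowest point of every HSPA1A and HSPA1B line is KMS11, where the probe sets used average 6.98 and 7.40.

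HSPA14, an HSP70 relative that binds ribosomes, was lower in RPMI8226 than in either other line. It had 6.90 log2 units in both RPMI8226 arrays, 7.44 with mimic and 7.40 with control in KMS11, and 7.35 and 7.38 in U266. Limma gave -0.52 for RPMI8226 minus KMS11 (adjusted p = 0.00727) and -0.46 for RPMI8226 minus U266 (adjusted p = 0.0107). The first call was lost without the KMS11 mimic array (-0.49, adjusted p = 0.0611). The second was lost without the RPMI8226 control array (-0.46, adjusted p = 0.0586), the RPMI8226 mimic array (-0.46, adjusted p = 0.0582) or the U266 control array (-0.43, adjusted p = 0.0707). KMS11 minus U266 was 0.05 (-0.18 to 0.29, adjusted p = 0.732).

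The other cytosolic members had no call between lines. HSPA2, an HSP70 gene known for its part in sperm formation, ranged from 3.51 to 3.89 over the 6 arrays. HSPA6, a strictly stress-induced HSP70 gene of humans, ranged from 3.35 to 4.13, and HSPA7, its near-identical pseudogene copy, from 2.79 to 3.31. The distant HSP70 relatives HSPA12A and HSPA12B ranged from 3.79 to 4.36 and from 4.63 to 4.89. Line means of these 5 genes differed by at most 0.36 log2 units, in HSPA6. Except HSPA12B, they lay below the median of all named genes. The table gives no detection calls, so whether such low values stood above background is unknown.

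Of the cytosolic members, the HSP110 genes HSPA4L and HSPH1 had the widest ranges between line means. HSPA4L, an HSP110 protein also named APG-1, had 5.86 log2 units with mimic and 6.12 with control in RPMI8226, 7.29 and 7.56 in KMS11, and 8.73 and 8.70 in U266. The lines formed 3 steps with no overlap. RPMI8226 minus U266 was -2.72 (-3.01 to -2.44, limma's adjusted p = 1.77e-05), a 6.61-fold lower level. RPMI8226 minus KMS11 was -1.43 (adjusted p = 0.000248) and KMS11 minus U266 was -1.29 (adjusted p = 0.000381).

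HSPH1, the stress-induced HSP110 gene, followed the same order. It had 7.30 with mimic and 7.28 with control in RPMI8226, 8.10 and 8.03 in KMS11, and 9.17 and 9.16 in U266. The arrays of a line differed by at most 0.07, far less than the lines did. RPMI8226 minus U266 was -1.88 (-2.11 to -1.64, limma's adjusted p = 3.54e-05), or 3.67-fold lower. RPMI8226 minus KMS11 was -0.78 (adjusted p = 0.0013) and KMS11 minus U266 was -1.10 (adjusted p = 0.000326).

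HSPA4, the constitutive HSP110 gene, was likewise lowest in RPMI8226, at 8.10 with mimic and 8.09 with control. KMS11 had 8.73 with mimic and 8.73 with control, and U266 had 8.80 and 8.73. Limma gave -0.64 for RPMI8226 minus KMS11 (adjusted p = 0.00304) and -0.67 for RPMI8226 minus U266 (adjusted p = 0.00226). KMS11 minus U266 was -0.03 (-0.27 to 0.20, adjusted p = 0.836), so for this gene the upper 2 lines were not separated.

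Among small heat shock protein genes, HSPB1 was called and HSPB3 and HSPB8 were not. HSPB1 had 8.46 log2 units with mimic and 8.71 with control in RPMI8226, 10.996 and 10.94 in KMS11, and 9.21 and 9.20 in U266. KMS11 stood far above both other lines. RPMI8226 minus KMS11 was -2.38 (-2.67 to -2.10, limma's adjusted p = 3.25e-05), or 5.22-fold lower, and KMS11 minus U266 was 1.76 (1.48 to 2.04, adjusted p = 0.000109), or 3.39-fold higher. RPMI8226 minus U266 was -0.62 (adjusted p = 0.00646).

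HSPB8, which works with BAG3 in clearing damaged proteins, ranged from 2.46 to 2.91 over the arrays. HSPB3, known from muscle, ranged from 2.52 to 2.92. Both were at the low end of the scale. For HSPB3 the U266 arrays spanned all others, and for HSPB8 the RPMI8226 and U266 arrays did not overlap, with RPMI8226 minus U266 at 0.25 (limma's adjusted p = 0.207). The RPMI8226 minus KMS11 difference of HSPB3 was 0.037 (-0.31 to 0.38), and its sign turned with array medians centred or quantile normalization.

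The line means of the mitochondrial chaperones differed by at most 0.66, and the lines stood in different orders. HSPA9, the HSP70 that pulls proteins into mitochondria, had 11.32 log2 units with mimic and 11.30 with control in RPMI8226, 11.88 and 11.90 in KMS11, and 11.25 and 11.22 in U266. KMS11 was above both other lines, which lay together. In limma, RPMI8226 minus KMS11 was -0.58 (adjusted p = 0.00444) and KMS11 minus U266 was 0.66 (adjusted p = 0.00264), while RPMI8226 minus U266 was 0.08 (-0.16 to 0.32, adjusted p = 0.58).

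HSPD1, the HSP60 subunit, had 10.15 with mimic and 10.11 with control in RPMI8226, 9.86 and 9.91 in KMS11, and 9.50 and 9.56 in U266. Its order ran down over the lines without overlap. RPMI8226 minus U266 was 0.60 (0.36 to 0.84, limma's adjusted p = 0.00383) and KMS11 minus U266 was 0.36 (0.12 to 0.60, adjusted p = 0.0322). The second call was lost without any single KMS11 or U266 array (0.33 to 0.38, adjusted p = 0.109 to 0.173). RPMI8226 minus KMS11 was 0.24 (0.0018 to 0.48, adjusted p = 0.11), and passed among genes at or above the median level (adjusted p = 0.0399) and with a variance trend (adjusted p = 0.00141).

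Of 15 genes listed as induced by heat shock, 8 were named members, and 6 of them were called among lines, where 50.8% of all named genes were: HSPA1A, HSPA1B, HSPA4L, HSPH1, HSPB1 and HSPD1. The other 2 were HSPA1L and HSPA6. HSPA1L is known for expression in testis and may not belong on the list, and induction by heat was not measured here. All of the 8 except HSPA6 lay at or above the median level, where 76.4% of all named genes were called in the same test. The 6 called members did not share an order of lines. In RPMI8226 against KMS11, 2 were called higher and 3 lower (16.4% and 20.4% of all named genes). In RPMI8226 against U266 the counts were again 2 and 3 (18.7% and 20.3%), and in KMS11 against U266 they were 2 and 4 (19.9% and 17.2%). Of the 34 partners of HSP70 and HSP90 listed beside the members, 22 were named and 20 passed the F test among lines (90.9%, against 50.8% of all named genes), and among those at or above the median level 20 of 21 passed (95.2%, against 76.4%).

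HSF1 itself, the heat shock transcription factor, had 7.59 with mimic and 7.60 with control in RPMI8226, 7.07 and 7.10 in KMS11, and 6.20 and 5.98 in U266. Its order was thus the reverse of that of HSPH1 and HSPA4L and the same as that of HSPD1. HSPA1A and HSPA1B were also highest in RPMI8226, but lowest in KMS11. A link between HSF1 and these levels was not tested. For HSF1, RPMI8226 minus U266 was 1.51 (limma's adjusted p = 0.00014). RPMI8226 minus KMS11 was 0.51 (adjusted p = 0.014), a call lost without the RPMI8226 control array (0.45, adjusted p = 0.0931) or the KMS11 mimic array (0.44, adjusted p = 0.106). HYOU1, the HSP110 relative of the endoplasmic reticulum, was also highest in RPMI8226, with RPMI8226 minus U266 at 1.78 (adjusted p = 5.26e-05) and RPMI8226 minus KMS11 at 0.96 (adjusted p = 0.000688). The order of HYOU1 was likewise opposite to that of HSPH1 and HSPA4L and the same as that of HSPD1. SEC63, a J-domain protein of the reticulum membrane, gave 1.36 for RPMI8226 minus U266 (adjusted p = 0.000178) and 1.43 for KMS11 minus U266 (adjusted p = 0.000183).

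BAG1, an exchange factor for HSP70, was low in KMS11 as HSPA1A and HSPA1B were. Limma gave 0.93 for RPMI8226 minus KMS11 (adjusted p = 0.000711), -0.51 for RPMI8226 minus U266 (adjusted p = 0.00796) and -1.45 for KMS11 minus U266 (adjusted p = 0.000131). The second of these was lost without the RPMI8226 control array (-0.47, adjusted p = 0.0591) or the U266 control array (-0.45, adjusted p = 0.0629). BAG3, another exchange factor, was low in RPMI8226, at -0.92 against KMS11 (adjusted p = 0.000899) and -0.76 against U266 (adjusted p = 0.00182). None of the 8 TRiC chaperonin subunits was named.

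The miR-10a mimic gave no call in any member. Of the 17, 0 passed limma's test of mimic against control with the line as a block, where 0% of all 14884 named genes passed in either direction. At an unadjusted p under 0.05 lay 2 members, HSPA6 and HSPA12A, and 767 of all named genes. By sign, 9 members were higher and 8 lower with mimic, and the median change was 0.00099 log2 units, against 0.0049 over all named genes. The sign was the same in all 3 lines for 5 higher members, where 13.4% of all named genes were, and for 2 lower members, where 11.7% were. The 95% interval of the mean change lay within 1.5-fold either way for 16 of the 17 members (94.1%) and for 95.4% of all named genes. The exception was HSPA6.

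**Figure D4:**
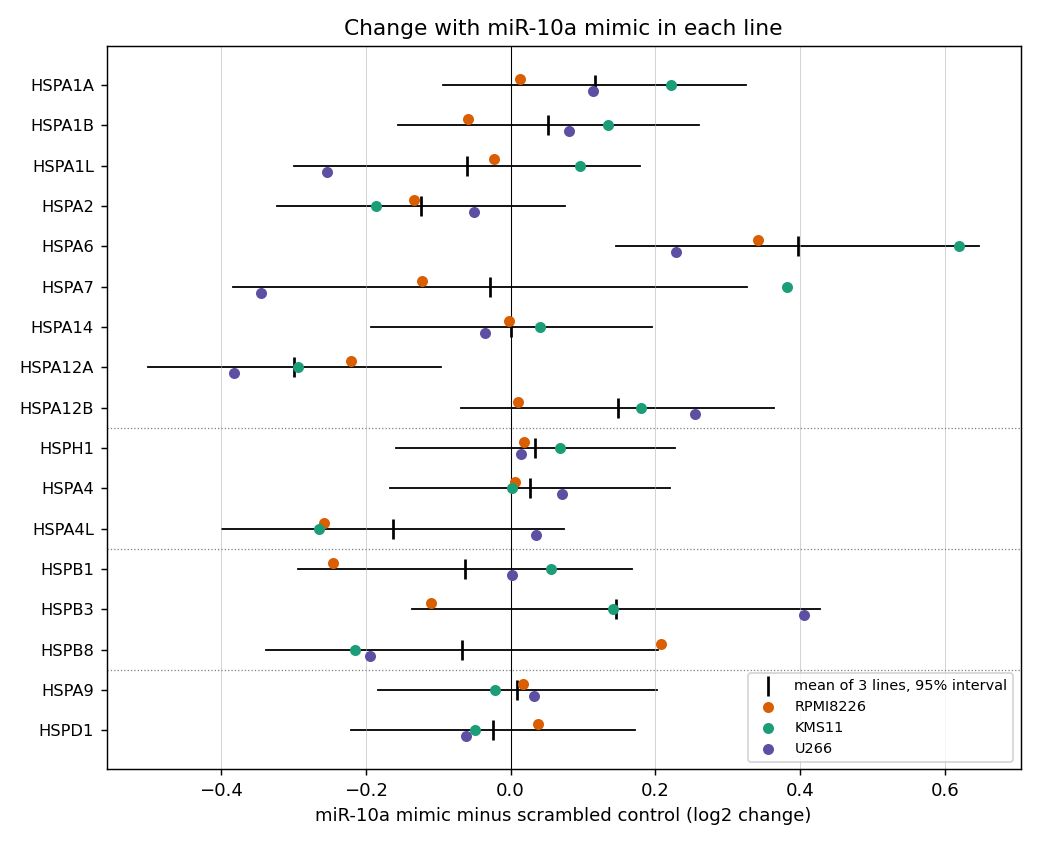
Change with miR-10a mimic (mimic minus scrambled control, log2, x axis) for the 17 members; coloured points are single lines, 1 pair of arrays each, black ticks the mean of 3 lines and bars its 95% interval, not adjusted for the number of genes. The interval lies off 0 for HSPA6 and HSPA12A, both low on the scale, and none passed after adjustment.

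HSPA6 had 3.74 log2 units with mimic against 3.40 with control in RPMI8226, 4.13 against 3.51 in KMS11, and 3.58 against 3.35 in U266. The mimic array was the higher in each line. The mean change was 0.40 ± 0.20 (SD, 3 lines, 95% interval 0.15 to 0.65), with limma's adjusted p = 0.949, and from 0.859 to 1 over its 8 alternatives. In KMS11 the change was 0.62, the only change of at least 1.5-fold among the members in a single line, where 0.759% of all named genes were that far higher. No member was that far lower in KMS11 (0.645% of all named genes), higher or lower in RPMI8226 (0.941% and 1.05%), or higher or lower in U266 (1.15% and 0.954%). The change in KMS11 against that in the other 2 lines gave a difference of 0.33 (-0.16 to 0.83, limma's adjusted p = 1), with 1 residual degree of freedom. HSPA7 is a near-identical copy, so its probes may read HSPA6 transcripts. Its changes were -0.12 in RPMI8226 and -0.34 in U266, against 0.38 in KMS11.

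HSPA12A had the lowest mean change, with 3.79 log2 units with mimic against 4.01 with control in RPMI8226, 3.90 against 4.19 in KMS11, and 3.98 against 4.36 in U266. The mean change was -0.30 ± 0.081 (SD, 3 lines, -0.50 to -0.10, limma's adjusted p = 0.949, and 0.859 to 1 over its 9 alternatives). Its other probe set gave 0.12, the opposite sign, so the 2 probe sets disagree. HSPA2 was also lower with mimic in each line, at -0.12 ± 0.068.

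No change of HSPA1A, HSPA1B or HSPH1 passed the test. HSPA1A gave 0.22 in KMS11, 0.11 in U266 and 0.013 in RPMI8226, with a mean of 0.12 ± 0.10 (-0.093 to 0.32, limma's adjusted p = 0.967). HSPA1B gave 0.052 ± 0.10, with -0.059 in RPMI8226. HSPH1 gave 0.034 ± 0.030. For each of these genes the interval lay within 1.5-fold; the limits were -0.16 and 0.23 for HSPH1 and -0.16 and 0.26 for HSPA1B.

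HSPA4L gave -0.26 in RPMI8226 and -0.27 in KMS11, but 0.035 in U266, with a mean of -0.16 ± 0.17 (-0.40 to 0.073, limma's adjusted p = 0.967). HSPB1 gave -0.24 in RPMI8226, against 0.055 in KMS11 and 0.00155 in U266. Among mitochondrial members, HSPA9 gave 0.0093 ± 0.027 and HSPD1 -0.024 ± 0.054. HSPA14 gave 0.00099 ± 0.038 and HSPA4 0.027 ± 0.039.

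HSPA12B had a higher value with mimic in each line, with a mean change of 0.15 ± 0.13. HSPB3 gave -0.11 in RPMI8226, 0.14 in KMS11 and 0.41 in U266. HSPB8 gave 0.21 in RPMI8226, -0.22 in KMS11 and -0.19 in U266. HSPA1L gave a mean of -0.060 ± 0.18. The tests of a line's own mimic change against the other 2 lines called 0 members and 0 of all named genes for each line in limma. At an unadjusted p under 0.05 lay 0 members for RPMI8226, 1 for KMS11 and 0 for U266, and 902, 609 and 911 of all named genes.

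The partners gave no call with mimic either. Of the 22, 0 passed in limma and 0 lay at an unadjusted p under 0.05, with a median change of 0.013 log2 units. The lowest mean changes were those of CHORDC1, an HSP90 partner, at -0.14 ± 0.43, and BAG3, at -0.10 ± 0.10, and the highest those of SDF2L1, a protein of the endoplasmic reticulum, at 0.14 ± 0.17 and HSBP1, which binds HSF1, at 0.071 ± 0.070. CHORDC1 gave 0.25 in KMS11 and -0.61 in U266, and its mean was 0.089 without the U266 arrays. The adjusted p in limma was at least 0.967 for these 4 genes.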

How the data were processed

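Affymetrix Human Gene 2.0 ST arrays were hybridised with biotin-labelled target from 100 ng of total RNA, per the labels' protocols. The authors deposited 1 table of log2 values for 53617 probe sets in 6 arrays. Per the submitters' processing notes, Affymetrix Expression Console 1.3.0 was used. The background correction, normalization, summarization and genome build were not given in the sources used here. Array medians lay between 3.61 and 3.66 log2 units. No detection calls were given, and the number of arrays limits the precision.

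The platform annotation named 16098 probe sets with 1 symbol each, and all gene identifiers matched RefSeq (GRCh38.p14). Each gene was represented by its probe set of highest mean level, which gave 14884 genes, with no filter on level. Line names follow the sample titles. Linear models were fitted in R 4.3.3 with limma 3.58.1 (no variance trend, 2 residual and 4.12 prior degrees of freedom, two-sided, Benjamini-Hochberg over all genes, threshold 0.05) and were tested on simulated data. The pairing comes from the cell line: deviations of a line's arrays from the treatment means correlated at 0.932 to 0.938 across genes.

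The members and the gene lists were chosen with earlier results of these data known. Named for lines were, in each compartment, the 4 members with the widest range of line means and the highest one, and for mimic the 6 highest and 6 lowest members and the 2 highest and 2 lowest in each line; other members are named to account for all 17, and BAG3 is also given for lines, chosen after its values were seen. The partners named were the 4 with the widest range and the 2 highest and 2 lowest with mimic. Alternatives were a filter at the median level, quantile normalization, centred medians, the mean of probe sets, a variance trend, no block or treatment term, and each line or array left out. The IM-9 line of the design text was not analysed here.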

Additional observations from a re-analysis of the deposited data

How the results depend on the processing

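All 120 counts of called genes or members stayed within 1.5 times the reported count under each alternative. Members called among lines numbered 8 or 9, in RPMI8226 against KMS11 7 to 9, in RPMI8226 against U266 5 to 8, and in KMS11 against U266 6 or 7. With mimic, 0 genes were called under each of 9 alternatives. The cell line pairs the arrays, and with no replicate block limma called 0 genes and 0 members, with 74 genes and 0 members at an unadjusted p under 0.05; the block thus changed no call. Of 838 values of single genes, 796 kept their direction and side of the threshold, 15 lost and 4 gained a call, and 23 turned sign, none of them a called value; the cause was not tested. Leaving out 1 line, the mimic change ranged from -0.12 to 0.028 for HSPB1 (highest without RPMI8226), -0.23 to 0.13 for HSPA7 (0.018 without RPMI8226, highest without U266), -0.20 to 0.0070 for HSPB8 (highest without KMS11), -0.14 to 0.036 for HSPA1L, -0.0019 to 0.024 for HSPA9, -0.019 to 0.019 for HSPA14 and -0.34 to 0.089 for CHORDC1 (HSPA1L and CHORDC1 highest without U266). On another probe set HSPA12A gave 0.12 and HSPA1L 0.019, alternatives added after the data were seen. HSPA9 gave -0.0069 with quantile normalization and HSPA14 -0.0075 with medians centred. For RPMI8226 minus KMS11, HSPB3 gave -0.0014 with quantile normalization and -0.0080 with medians centred. Leaving out 1 array, that difference ranged from -0.15 to 0.23 for HSPB3, -0.12 to 0.29 for HSPB8 (-0.023 without the KMS11 mimic array), -0.13 to 0.10 for HSPA1L (0.014 without the RPMI8226 control array) and -0.16 to 0.027 for SEC63. For HSPB3, RPMI8226 minus U266 ranged from -0.20 to 0.19 and KMS11 minus U266 from -0.23 to 0.16. HSF1 lost its call in RPMI8226 minus KMS11 without the RPMI8226 control or KMS11 mimic array (0.45 and 0.44), and BAG1 in RPMI8226 minus U266 without the control array of either line (-0.47 and -0.45). HSPA14 lost both its calls, under 1 and 3 of these omissions. Without detection calls, values of the 6 members below the median level cannot be set against background.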
